A study of Mus musculus with 6 samples.

Results

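The 38 genes described here encode transcription factors that pattern the mesenchyme of the face and palate. They were chosen by name, without the Dlx genes, out of 24346 gene symbols, and all 38 were found in each library. The tissue was the nasomaxillary complex (the nose and upper jaw) of mouse embryos at E17.5, profiled by messenger RNA sequencing in 6 libraries. The 3 mutant libraries came from Wnt1-Cre:Pth1r f/f embryos. Both copies of Pth1r, the gene for the parathyroid hormone receptor, are floxed there, and the Wnt1-Cre transgene drives recombination in neural crest cells and the dorsal neural tube. The 3 control libraries came from Pth1r f/f embryos, which share the floxed gene and carry no Cre, so any effect of the transgene itself and that of losing Pth1r cannot be told apart. Values are FPKM, fragments per kilobase of transcript after scaling for library depth, so levels of different genes are compared per length. The setting by which the libraries were scaled to each other is not given. Differences are log2 changes of (FPKM + 1), mutant minus control, from limma fitted to the 14766 genes whose mean over the 6 libraries reached 1 FPKM.

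Cranial neural crest cells leave the dorsal neural tube and form most of the skeleton and connective tissue of the face. The identity of each facial region is set by combinations of homeobox, paired box, T-box, forkhead and basic helix-loop-helix factors. Ligands from the overlying epithelium and the mesenchyme, among them BMPs, FGFs, sonic hedgehog and endothelin, set where these factors are made. Several of them remain on late in development in sutures, tooth germs, the palate, dermis and skeletal progenitors.

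A few facts of the libraries touch the results. The spacing of low values put depth between 7.95 and 12.1 M fragments in mutant libraries and between 11.1 and 13.1 M in control libraries, with mutant replicate 3 the shallowest. By Xist and Y-linked genes the mutant libraries were 1 female (replicate 1) and 2 male, against 3 female control libraries. Pth1r itself measured 77.3, 78.4 and 69.7 FPKM in mutant libraries and 75.2, 55.2 and 73.5 FPKM in control libraries, and which part of it is floxed is not given. All 10 fibroblast and mesenchyme markers (Col1a1, Pdgfra, Vim and others) were present, with summed levels of 8881 to 9528 FPKM in mutant and 9338 to 11690 FPKM in control libraries. Col1a1 and Col1a2, at means of 4359 and 3085 FPKM over the 6 libraries, make up most of these sums. Log2 changes of the 10 markers were positive in 4 and negative in 6, with a median of -0.046 and 0 called. Of 10 Hox genes, which the crest of the upper face does not use, 5 were listed at 0 in every library and none had a mean of 1 FPKM. The highest, Hoxd4, came close at 0.972 FPKM, with 0.995, 1.62 and 0.935 FPKM in mutant libraries and 0.897, 0.997 and 0.382 FPKM in control libraries. In this bulk tissue, fewer cells of a type and less RNA per cell cannot be told apart. The labels do not say which embryo or litter each library is from, so p-values measure the spread between these samples, which may be technical.

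Of the 38 genes, 34 passed the filter, and 0 were called at a limma adjusted p under 0.05, against 0.264% of all 14766 genes tested (0.0610% higher and 0.203% lower in mutant libraries). The lowest adjusted p was 0.0872, for Six2, followed by 0.0910 for Gsc. At an unadjusted limma p under 0.05 there were 9 of 34 (26.5%), against 11.3% of all genes tested. They were Barx2, Lhx8, Shox2 and Foxd1 with higher values in mutant libraries (4 of 34, background 5.35%) and Gsc, Six2, Barx1, Foxf1 and Snai2 with lower ones (5 of 34, background 5.96%). In the same 9 genes the 3 mutant values did not overlap the 3 control values, as in 17.0% of all genes tested (7.85% higher and 9.16% lower in mutant libraries). The count of 9 became 3 with sex as a covariate and 1 with the cartilage markers as a covariate, fits in which the share over all genes tested was 5.14% and 6.74%. With sex as a covariate the log2 changes were -0.78 for Gsc, -0.35 for Six2, 0.77 for Foxd1 and 0.56 for Barx2. For the rest of the 9 they were -0.36 for Barx1, 0.30 for Lhx8, 0.13 for Shox2, -0.093 for Foxf1 and -0.13 for Snai2. Without that covariate these were -0.58, 0.41, 0.19, -0.39 and -0.12. With the skeletal muscle markers as a covariate the count was also 9, but of a different set. It held 1 gene higher (Foxd1) and 8 lower in mutant libraries, beside 11.4% over all genes tested. Of the first 9, only Gsc, Six2 and Foxd1 were in that set, and Prrx1 and Snai1 were among the new genes. The 1 gene under the cartilage covariate was none of the first 9 and was lower in mutant libraries. The median log2 change over the 34 was 0.058 and the median size, sign left out, was 0.17, against -0.0020 and 0.072 over all genes tested. The median SD within groups was also larger for these genes, 0.16 on the log2 scale against 0.097 over all genes tested.

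**Figure D1:**
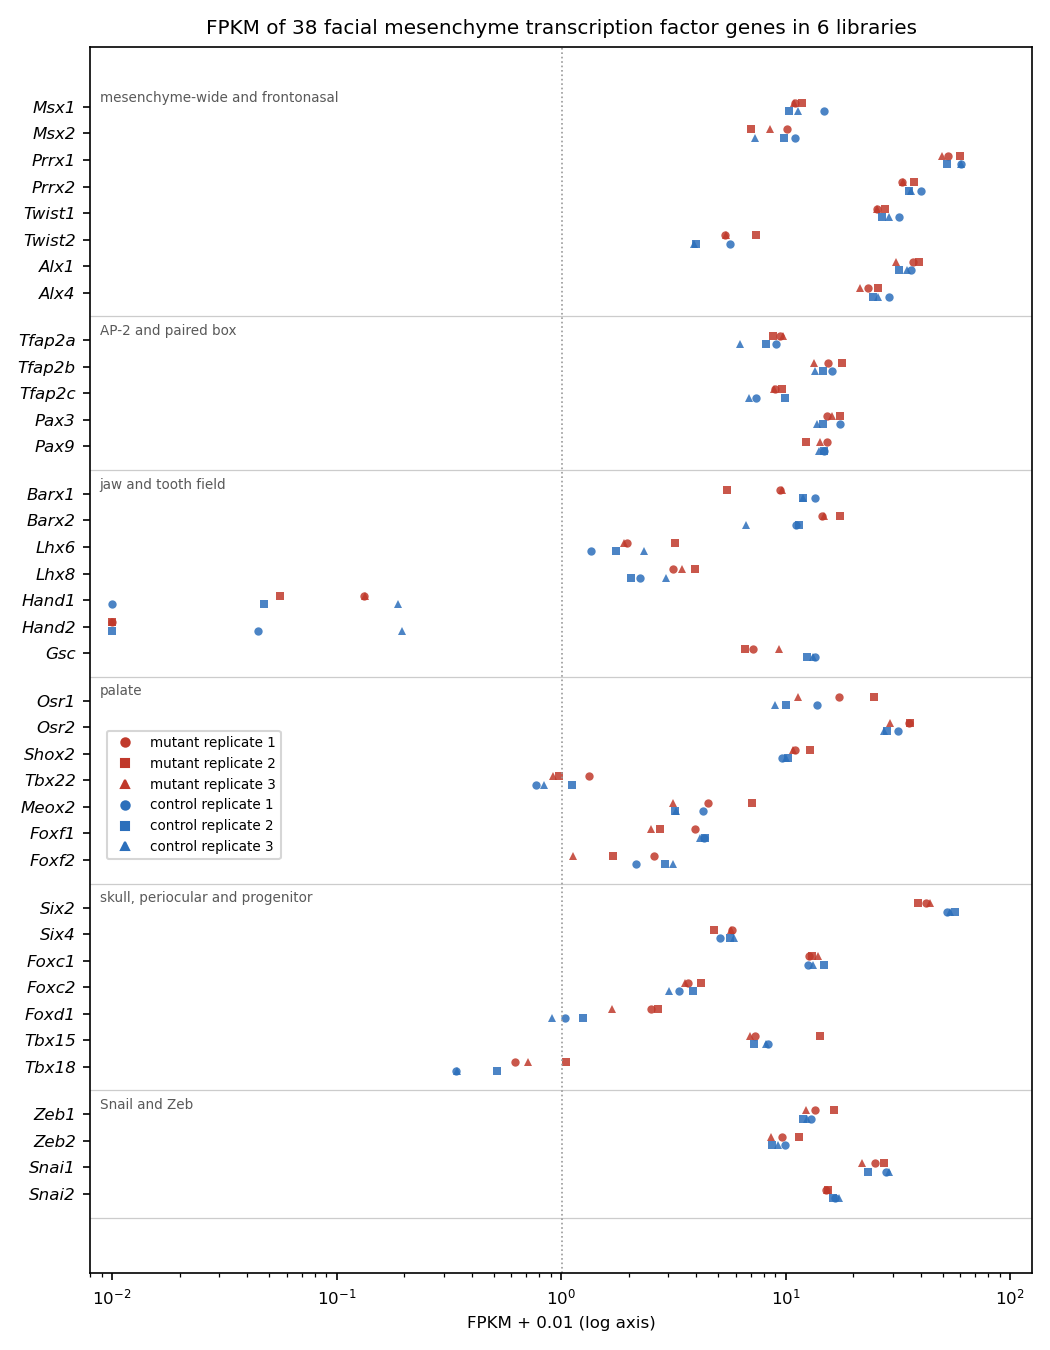
FPKM (plus 0.01, log axis) of the 38 genes in each library, with 3 mutant libraries (red) drawn above 3 control libraries (blue) and 1 FPKM as a dotted line. Prrx1 and Six2 are the most abundant, Hand1 and Hand2 lie near 0, and for most genes red and blue points overlap.

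Promoters of the genes whose groups stood apart are shown for Gsc, Six2 and Barx1, with lower values in mutant libraries, and Foxd1 and Lhx8, with higher values. RefSeq promoter windows (GRCm38.p6, 250 bases before to 50 bases after a gene's start, 300 bases) were at hand for 25 of the 38 genes, in 34 windows. Each is written 5′ to 3′ along the gene, with capitals marking CG dinucleotides. They lie at chr12:104473187-104473486 (minus strand), chr17:85688205-85688504 (minus strand), chr13:48662786-48663085 (plus strand), chr13:98353995-98354294 (plus strand) and chr3:154330511-154330810 (minus strand).
Gsc: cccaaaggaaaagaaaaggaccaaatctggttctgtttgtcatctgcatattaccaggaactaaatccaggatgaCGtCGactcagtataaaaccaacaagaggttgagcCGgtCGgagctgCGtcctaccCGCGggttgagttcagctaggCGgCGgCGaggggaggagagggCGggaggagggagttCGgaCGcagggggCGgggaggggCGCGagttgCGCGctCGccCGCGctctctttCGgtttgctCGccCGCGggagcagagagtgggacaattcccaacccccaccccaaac
Six2: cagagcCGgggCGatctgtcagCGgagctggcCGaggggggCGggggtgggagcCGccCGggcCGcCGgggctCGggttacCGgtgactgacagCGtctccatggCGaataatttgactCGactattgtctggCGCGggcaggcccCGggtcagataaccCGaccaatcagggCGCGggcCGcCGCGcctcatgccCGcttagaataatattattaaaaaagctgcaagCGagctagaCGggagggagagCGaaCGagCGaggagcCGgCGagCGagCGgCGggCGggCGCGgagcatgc
Barx1: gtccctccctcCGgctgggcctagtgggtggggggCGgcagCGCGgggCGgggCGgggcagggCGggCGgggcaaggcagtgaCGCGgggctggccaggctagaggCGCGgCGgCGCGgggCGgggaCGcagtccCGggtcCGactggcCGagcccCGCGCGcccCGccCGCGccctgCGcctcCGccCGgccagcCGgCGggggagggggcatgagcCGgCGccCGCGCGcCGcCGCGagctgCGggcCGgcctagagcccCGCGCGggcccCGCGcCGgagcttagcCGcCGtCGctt
Foxd1: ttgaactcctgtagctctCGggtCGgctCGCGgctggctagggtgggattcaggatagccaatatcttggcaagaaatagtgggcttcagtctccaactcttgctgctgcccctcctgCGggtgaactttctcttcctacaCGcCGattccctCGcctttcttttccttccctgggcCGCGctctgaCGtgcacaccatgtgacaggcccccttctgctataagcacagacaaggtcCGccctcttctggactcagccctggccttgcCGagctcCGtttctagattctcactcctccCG
Lhx8: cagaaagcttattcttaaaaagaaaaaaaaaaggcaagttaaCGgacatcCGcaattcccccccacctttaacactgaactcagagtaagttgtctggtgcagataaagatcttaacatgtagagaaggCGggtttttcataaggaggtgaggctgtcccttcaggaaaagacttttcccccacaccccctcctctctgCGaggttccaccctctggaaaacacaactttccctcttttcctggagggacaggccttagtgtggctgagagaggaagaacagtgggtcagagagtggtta

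The density of CG dinucleotides differed widely among these windows. Barx1 held 50, Six2 37, Gsc 25, Foxd1 15 and Lhx8 4. The median over the 34 windows was 15, against 7 over all 32851 promoter windows. The GC box GGGCGG, the site of Sp factors, was present on either strand in 23 of the 34 windows and in 35.7% of all promoter windows. Barx1 held 8 copies, Six2 3, Gsc 2, Foxd1 1 and Lhx8 none. The homeodomain core TAATTA was found in 4 windows (those of Prrx1, Msx2, Tfap2a and Hand2), against 5.29% of all. The full cAMP response element TGACGTCA was found in none of the 34 and in 1.79% of all. Both of these letter strings read the same on either strand. The Snail and Zeb E-box CAGGTG was present in 3 windows (20.2% of all), the AP-2 palindrome GCCNNNGGC in 7 (16.6% of all), the forkhead core TGTTTA in 1 (13.4% of all) and TATAAA in 5 (13.6% of all), both strands searched. These are matches of letters, and several windows of 1 gene can overlap.

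Among factors used across the facial mesenchyme and in the frontonasal process, the genotypes overlapped, and levels ran from 5.27 FPKM for Twist2 to 56.0 FPKM for Prrx1 as means over the 6 libraries. Prrx1, a paired-related homeobox factor of limb and facial mesenchyme, was the most abundant of the 38. It measured 52.9, 60.0 and 49.8 FPKM in mutant libraries and 60.6, 52.4 and 60.2 FPKM in control libraries. Its log2 change was -0.09 ± 0.09 (SE), with a 95% interval of -0.29 to 0.11. With the muscle markers as a covariate it was -0.27 (limma adjusted p = 0.291). The related Prrx2 averaged 34.6 ± 2.34 FPKM in mutant and 37.2 ± 2.49 FPKM in control libraries (SD, n = 3 each). Alx1 and Alx4, homeobox factors of the frontonasal process, ran from 31.1 to 39.2 and from 21.5 to 25.9 FPKM in mutant libraries, and from 31.8 to 36.3 and from 24.6 to 28.9 FPKM in control libraries. The BMP-responsive homeobox genes Msx1 and Msx2 averaged 11.2 ± 0.533 and 8.55 ± 1.58 FPKM in mutant libraries and 12.2 ± 2.36 and 9.33 ± 1.87 FPKM in control libraries. Of these 8 genes 6 had negative log2 changes, with a median of -0.10, and none had an unadjusted limma p under 0.05.

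Both Twist genes, basic helix-loop-helix factors that restrain osteoblast differentiation, stood in opposite directions without passing the test. Twist1, required for suture patency and crest mesenchyme, measured 25.4, 27.6 and 25.5 FPKM in mutant libraries and 32.0, 26.8 and 28.8 FPKM in control libraries. Mutant replicate 2 lay inside the control range and the other mutant values below it. Twist2, a dermal and fibroblast factor, measured 5.38, 7.36 and 5.42 FPKM in mutant libraries and 5.62, 3.97 and 3.88 FPKM in control libraries. Control replicate 1 lay inside the mutant range. The log2 changes were -0.15 ± 0.07 for Twist1 and 0.36 ± 0.16 for Twist2, with limma adjusted p of 0.499 and 0.442. Without mutant replicate 2 the log2 change of Twist2 was 0.24, the lowest of the fits that leave out 1 library, which reached 0.51. With the muscle markers as a covariate it was 0.066, and with the surface epithelium markers 0.145.

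The AP-2 factors, which act in crest induction and are also made in surface epithelium, and the paired box factors differed little between genotypes. Pax3, a factor of crest and of muscle progenitors, had the highest mean of the 5. It measured 15.3, 17.4 and 16.1 FPKM in mutant libraries and 17.4, 14.6 and 13.8 FPKM in control libraries. Tfap2a measured 9.46, 8.78 and 9.68 FPKM in mutant libraries and 9.01, 8.19 and 6.27 FPKM in control libraries. Its log2 change was 0.24 ± 0.12 (limma adjusted p = 0.509), and control replicate 3 was the low value. Without that library the log2 change was 0.10. Tfap2b averaged 15.5 ± 2.26 FPKM in mutant and 14.7 ± 1.24 FPKM in control libraries, and Tfap2c 9.13 ± 0.409 and 8.04 ± 1.66 FPKM. Pax9, needed in palate and tooth mesenchyme, averaged 13.9 ± 1.51 FPKM in mutant and 14.5 ± 0.427 FPKM in control libraries. None of the 5 had an unadjusted limma p under 0.05. The 10 surface epithelium markers summed to 2147 to 2226 FPKM in mutant libraries and to 1896, 1470 and 1039 FPKM in control replicates 1 to 3, so control replicate 3 was lowest in the sum too. Their log2 changes were positive in 8 and negative in 2, with a median of 0.46 and 0 called. Not every marker followed the sum. Krt8, Krt18, Epcam and Cdh1 had log2 changes of 0.0043, -0.052, -0.12 and 0.024, and control replicate 3 was the lowest library for none of them. The part of epithelium in the Tfap2a difference was not tested apart from the covariate fit, in which its log2 change was -0.10.

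Of 5 tested factors of the jaw and tooth field 4 had an unadjusted limma p under 0.05, without a call, against 11.3% of all genes tested. The role groups were drawn up with earlier results of these data known, so such counts within a group are descriptive. Gsc (goosecoid), a homeobox factor required in the jaw and nasal region (chromosome 12, 104471209 to 104473330, minus strand, GRCm38), measured 7.15, 6.55 and 9.36 FPKM in mutant libraries and 13.5, 12.4 and 13.2 FPKM in control libraries. Every mutant value lay below every control value, and the mutant mean was 0.589 of the control mean. The log2 change was -0.71 ± 0.12, with a 95% interval of -0.98 to -0.43 and a limma adjusted p of 0.0910. Without mutant replicate 3, the shallowest library, its log2 change was -0.84 with an adjusted p of 0.0098, so that Gsc was then called, and with library weights it was -0.74 with an adjusted p of 0.0307. With the cartilage markers as a covariate it was 0.15 (adjusted p = 0.887). These 10 markers summed to 532, 463 and 768 FPKM in mutant libraries and to 1670, 1453 and 1796 FPKM in control libraries. Cartilage and genotype are thus nearly the same split, and the part of cartilage in the Gsc difference cannot be told apart.

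Barx1 and Barx2, homeobox paralogs, lay on opposite sides. Barx1, a factor of oral jaw mesenchyme and molar tooth germs, measured 9.45, 5.49 and 9.65 FPKM in mutant libraries and 13.5, 12.0 and 12.0 FPKM in control libraries. Its groups did not overlap, and mutant replicate 2 was the lowest. Barx2, made in surface and oral epithelium and in muscle precursors, measured 14.5, 17.4 and 14.8 FPKM in mutant libraries and 11.1, 11.5 and 6.63 FPKM in control libraries. Mutant replicate 2 was the highest and control replicate 3 the lowest. The log2 changes were -0.58 ± 0.19 for Barx1 and 0.65 ± 0.19 for Barx2, with limma adjusted p of 0.325 and 0.289. The skeletal muscle markers, all 11 present, summed to 719, 1392 and 534 FPKM in mutant libraries and to 608, 361 and 526 FPKM in control libraries, with mutant replicate 2 the highest. All 11 had positive log2 changes, with a median of 0.75 and 0 called. Myh3, Myog, Myod1 and Tnni1 were higher in every mutant library than in any control library, and the other muscle markers overlapped. The log2 change of Barx1 was -0.35 without mutant replicate 2, -0.24 with the muscle markers as a covariate, -0.36 with sex and -0.76 with the epithelium markers. That of Barx2 was 0.42 without control replicate 3, 0.54 with the muscle markers, 0.18 with the epithelium markers and 0.038 with the cartilage markers.

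The LIM homeobox factors Lhx6 and Lhx8 act in oral jaw, palate and tooth mesenchyme. Lhx8 measured 3.15, 3.92 and 3.44 FPKM in mutant libraries and 2.23, 2.04 and 2.92 FPKM in control libraries. The groups did not overlap, with a log2 change of 0.41 ± 0.12 and a limma adjusted p of 0.303. Lhx6 measured 1.95, 3.19 and 1.90 FPKM in mutant libraries and 1.35, 1.74 and 2.32 FPKM in control libraries, which overlapped. Estimated from the annotated exon length, these values stand for 69.2 to 106 fragments of Lhx8 in mutant and 66.8 to 82.3 in control libraries. Tooth markers differed between libraries of 1 group. The enamel protein gene Amelx measured 1.50, 0.149 and 0 FPKM in mutant libraries and 81.4, 84.4 and 0.880 FPKM in control libraries. Ambn, another enamel matrix gene, measured 14.8, 12.4 and 11.2 FPKM in mutant libraries and 24.3, 30.4 and 2.81 FPKM in control libraries. Control replicate 3 was the lowest control library for both genes, and for Ambn it lay below every mutant library. Odam, an enamel organ gene of the same list, had the higher mean in mutant libraries, 2.27 against 0.780 FPKM in control libraries. In control replicate 3 the Barx1 and Gsc values lay beside those of the other control libraries, and the Lhx8 value was the control value nearest the mutant range. The part of tooth tissue in the values of these genes was not tested.

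Hand1 and Hand2, endothelin-dependent factors of the lower jaw, were at the edge of detection in this upper jaw tissue. Hand2 was listed at 0 in all 3 mutant libraries and at 0.0347, 0 and 0.185 FPKM in control libraries. Hand1 measured 0.122, 0.0461 and 0.124 FPKM in mutant libraries and 0, 0.0375 and 0.178 FPKM in control libraries. The highest of these stands for about 4.83 fragments of Hand2 and 3.94 of Hand1. No difference was detectable at this depth.

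Of 6 tested palate factors 2 had an unadjusted limma p under 0.05, Shox2 and Foxf1, against 11.3% of all genes tested. Apart from the forkhead genes, the palate factors had higher means in mutant libraries. Osr1 and Osr2 are odd-skipped zinc finger factors, and Osr2 drives growth of the palatal shelves. Osr1 measured 17.3, 24.8 and 11.4 FPKM in mutant libraries and 13.8, 10.1 and 8.98 FPKM in control libraries. It had the widest spread of all 34 genes, a SD of 0.43 within groups on the log2 scale, and its log2 change was 0.61 ± 0.26 (limma adjusted p = 0.447). Osr2, the most abundant palate factor, measured 35.4, 35.6 and 29.3 FPKM in mutant libraries and 31.5, 28.3 and 27.4 FPKM in control libraries. Its log2 change was 0.19 ± 0.09 (limma adjusted p = 0.482), and ran from 0.145 to 0.28 when 1 library was left out. With the muscle markers as a covariate it was 0.046, and with the epithelium markers 0.091. Mutant replicate 3 lay inside the control range for both genes. Shox2, a homeobox factor of the anterior palate, measured 11.0, 12.8 and 10.7 FPKM in mutant libraries and 9.63, 10.3 and 9.99 FPKM in control libraries. Its groups did not overlap, with a log2 change of 0.19 ± 0.08 and a limma adjusted p of 0.421. It was 0.12 without mutant replicate 2 and 0.086 with the muscle markers as a covariate. Meox2, a homeobox factor of the posterior palate and of muscle, measured 4.50, 7.06 and 3.13 FPKM in mutant libraries and 4.27, 3.20 and 3.22 FPKM in control libraries. Tbx22, an X-linked T-box factor of the posterior palate, measured 1.32, 0.963 and 0.906 FPKM in mutant libraries and 0.763, 1.11 and 0.832 FPKM in control libraries, under the filter.

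Foxf1 and Foxf2, forkhead factors that respond to hedgehog signals in palatal mesenchyme, were both at their lowest in the male mutant libraries. Foxf1 measured 3.94, 2.74 and 2.50 FPKM in mutant libraries and 4.31, 4.37 and 4.12 FPKM in control libraries. Foxf2 measured 2.58, 1.70 and 1.12 FPKM in mutant libraries and 2.15, 2.88 and 3.13 FPKM in control libraries. In both genes mutant replicate 1, the female library, was the mutant value nearest the control values, inside their range for Foxf2. The log2 changes were -0.39 ± 0.13 for Foxf1 and -0.43 ± 0.20 for Foxf2, with limma adjusted p of 0.355 and 0.481. With sex as a covariate, a fit that sets mutant replicate 1 against the control libraries, the log2 change of Foxf1 was -0.09. Beyond that fit the part of sex was not tested. The lowest Foxf2 value, in mutant replicate 3, stands for about 21.0 fragments, the fewest of any tested gene here.

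Each of these genes has a Foxc neighbour on its chromosome. Foxf2 lies 175.2 kb from Foxc1 on chromosome 13, and Foxf1 lies 28.0 kb from Foxc2 on chromosome 8 (GENCODE, GRCm38). No other members lay within 1 Mb of each other. Foxc1, needed for skull and eye mesenchyme, measured 12.6, 13.0 and 13.9 FPKM in mutant libraries and 12.6, 14.8 and 13.2 FPKM in control libraries. Foxc2 measured 3.66, 4.18 and 3.54 FPKM in mutant libraries and 3.32, 3.85 and 3.01 FPKM in control libraries. Both overlapped between genotypes, with log2 changes of -0.04 ± 0.07 and 0.13 ± 0.10. Whether neighbours differ from each other in their change was not tested.

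**Figure D2:**
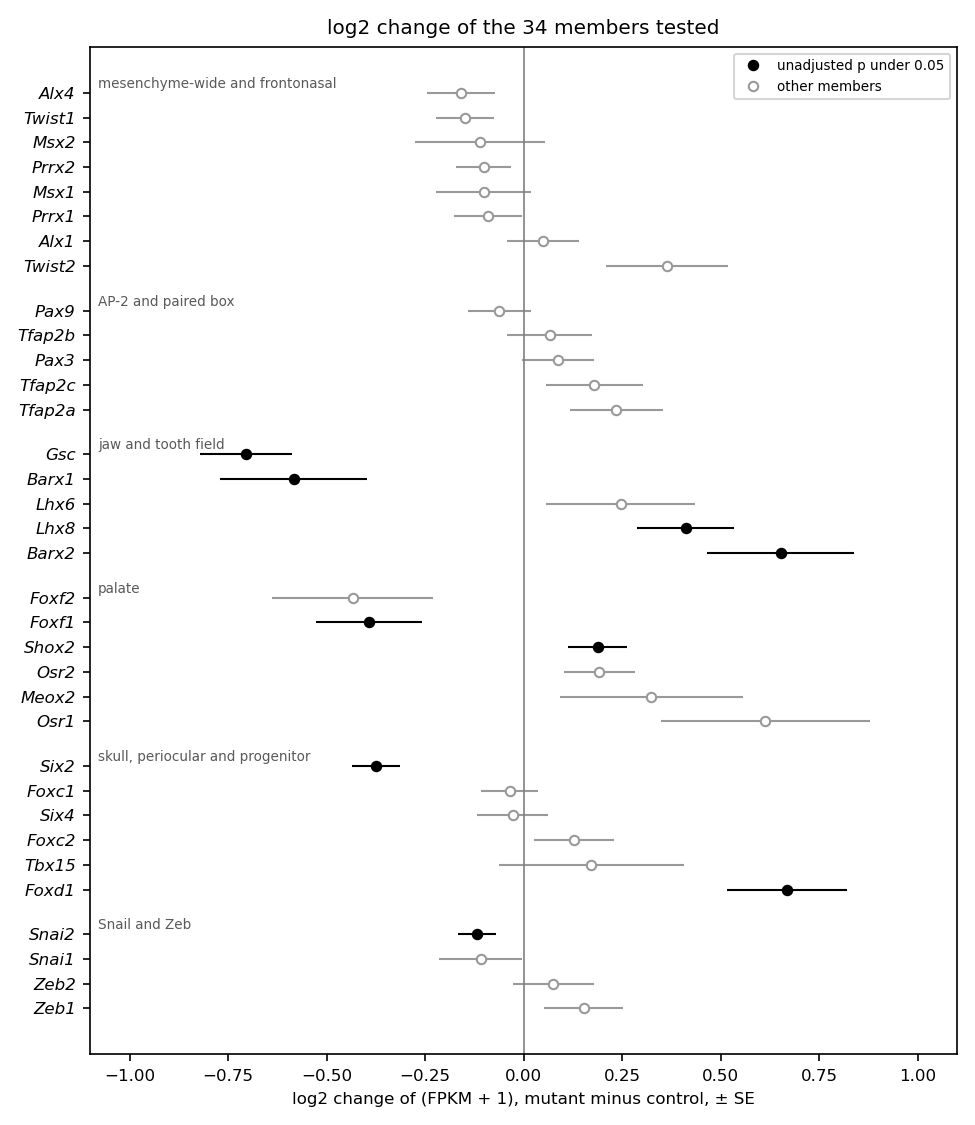
The log2 change of (FPKM + 1), mutant minus control, of the 34 genes tested, with bars of 1 SE, ordered within each role. Filled points mark the 9 genes with an unadjusted limma p under 0.05. Gsc at -0.71 and Foxd1 at 0.67 are the ends of the range.

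Among factors of the skull, the tissue around the eye and progenitor cells, Six2 and Foxd1, 2 of 6 tested, had an unadjusted limma p under 0.05. The share over all genes tested was 11.3%. Six2, a homeobox factor that keeps progenitor cells and acts in frontonasal and skull base mesenchyme (chromosome 17, 85684277 to 85688274, minus strand), measured 42.3, 38.7 and 44.0 FPKM in mutant libraries and 52.5, 56.8 and 53.7 FPKM in control libraries. Every mutant value lay below every control value, at 0.767 of the control mean. The log2 change was -0.38 ± 0.06, with a 95% interval of -0.52 to -0.23 and a limma adjusted p of 0.0872. It was called with library weights (adjusted p = 0.0459) and was -0.35 with sex as a covariate (adjusted p = 0.847). With the cartilage markers as a covariate it was -0.16 (adjusted p = 0.873), and with the muscle markers -0.26 (adjusted p = 0.235). Six4, also expressed in muscle, averaged 5.42 ± 0.543 FPKM in mutant and 5.54 ± 0.404 FPKM in control libraries.

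Foxd1, a forkhead factor best known from kidney stroma and retina, measured 2.50, 2.70 and 1.67 FPKM in mutant libraries and 1.03, 1.24 and 0.898 FPKM in control libraries. The groups did not overlap, and the mutant mean was 2.17 times the control mean. The log2 change was 0.67 ± 0.15 on the (FPKM + 1) scale, which understates a low gene, with a limma adjusted p of 0.200. These levels stand for about 67.4 to 154 fragments in mutant and 50.5 to 82.4 in control libraries. With the cartilage markers as a covariate its log2 change was -0.31 (adjusted p = 0.863).

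The T-box genes of this group are factors of skull, dermis and mesenchymal progenitors. Tbx18, under the filter and so not tested, measured 0.615, 1.04 and 0.702 FPKM in mutant libraries and 0.330, 0.510 and 0.335 FPKM in control libraries. Its groups did not overlap, at about 26.3 to 52.6 fragments in mutant and 17.6 to 31.6 in control libraries. Tbx15 measured 7.32, 14.2 and 6.94 FPKM in mutant libraries and 8.36, 7.20 and 8.16 FPKM in control libraries. Mutant replicate 2 stood alone above the other 5 values, and it was also the library highest in skeletal muscle markers.

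The Snail and Zeb zinc finger repressors, which drive epithelial to mesenchymal transition, had 1 of 4 genes with an unadjusted limma p under 0.05. Over all genes tested the share was 11.3%. Snai1 had the highest mean of the 4, with 24.9, 27.3 and 21.8 FPKM in mutant libraries and 28.1, 23.2 and 28.8 FPKM in control libraries. Its log2 change was -0.11 ± 0.11, and -0.31 with the muscle markers as a covariate (limma adjusted p = 0.331). Snai2 (Slug) measured 15.1, 15.4 and 15.3 FPKM in mutant libraries and 16.5, 16.2 and 17.3 FPKM in control libraries. Its groups did not overlap, at a log2 change of -0.12 ± 0.05 (limma adjusted p = 0.430). Zeb1 averaged 14.0 ± 2.09 FPKM in mutant and 12.5 ± 0.503 FPKM in control libraries. Zeb2 averaged 9.88 ± 1.43 FPKM in mutant and 9.28 ± 0.598 FPKM in control libraries.

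**Figure D3:**
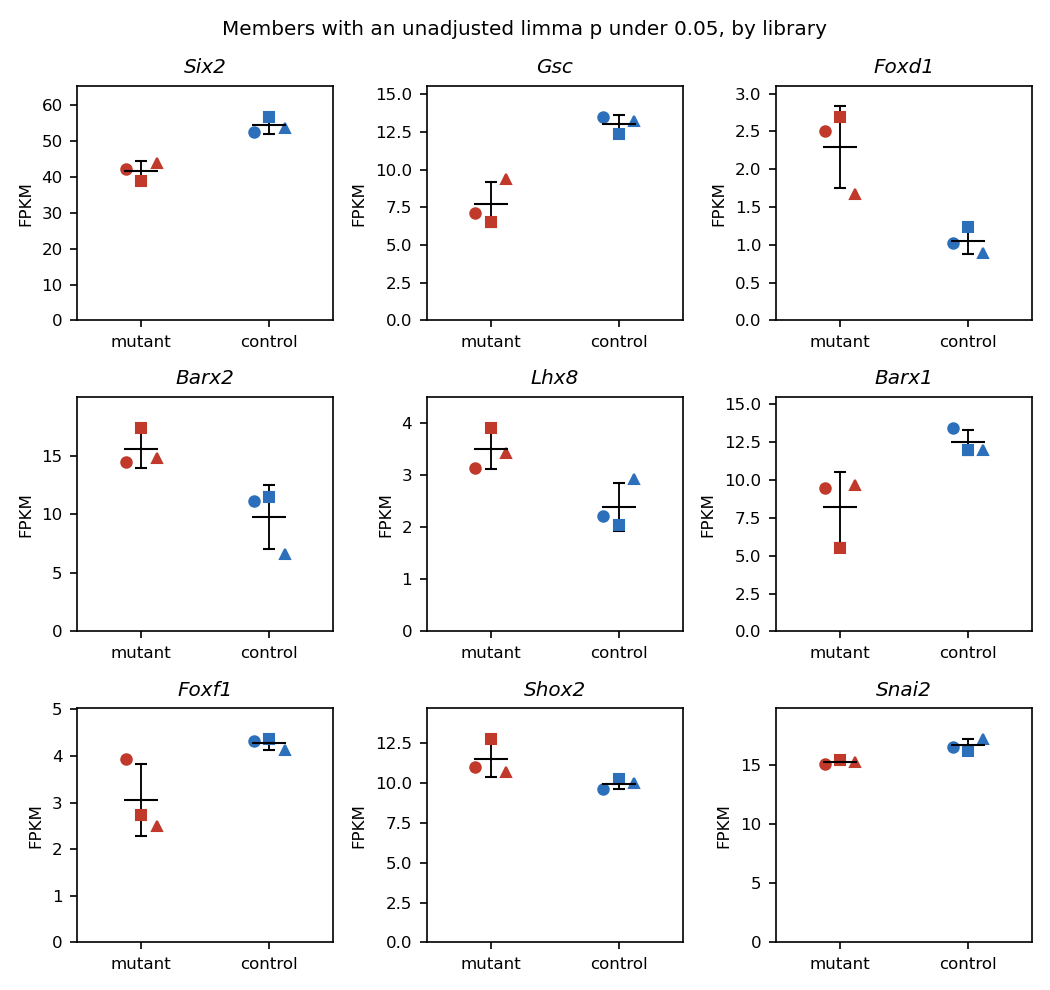
FPKM by library of the 9 genes with an unadjusted limma p under 0.05, mutant left and control right, with mean and SD (n = 3 each). Circles, squares and triangles are replicates 1, 2 and 3. The axes start at 0, and in each panel the groups do not overlap. The gap as drawn ranges from wide in Gsc to narrow in Foxf1 and Shox2.

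Related genes can be compared within a library, where scaling between libraries largely cancels out. With 1 FPKM added to each value it does not cancel fully, least of all for genes of low level. Over 16 pairs in which both genes passed the filter, the log2 ratio of (FPKM + 1) was taken in each library and tested with an exact permutation test (two-sided). With 3 against 3 this test cannot go below 0.10, which 5 pairs reached, with a p adjusted over the 16 pairs of 0.32. Of these the Barx1/Barx2 ratio moved most. It was -0.57, -1.50 and -0.57 in mutant libraries and 0.25, 0.05 and 0.77 in control libraries, so that Barx2 exceeded Barx1 in all mutant libraries and Barx1 exceeded Barx2 in all control libraries. The Six2/Six4 ratio was 2.68, 2.78 and 2.75 in mutant libraries and 3.13, 3.12 and 2.99 in control libraries.

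In the other 3 of these pairs the ratio separated the genotypes where neither gene did alone. The Twist1/Twist2 ratio was 2.05, 1.77 and 2.05 in mutant libraries and 2.32, 2.48 and 2.61 in control libraries. By mean FPKM, Twist1 stood at 4.33 times Twist2 in mutant and 6.50 times in control libraries. The Alx1/Alx4 ratio was 0.63, 0.58 and 0.51 in mutant libraries and 0.32, 0.36 and 0.42 in control libraries. The Zeb1/Zeb2 ratio was the tightest, at 0.45, 0.48 and 0.47 in mutant libraries and 0.36, 0.42 and 0.39 in control libraries. The Prrx1/Prrx2 pair differed by 0.01 between genotypes, as did Msx1/Msx2 and Snai1/Snai2.

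**Figure D4:**
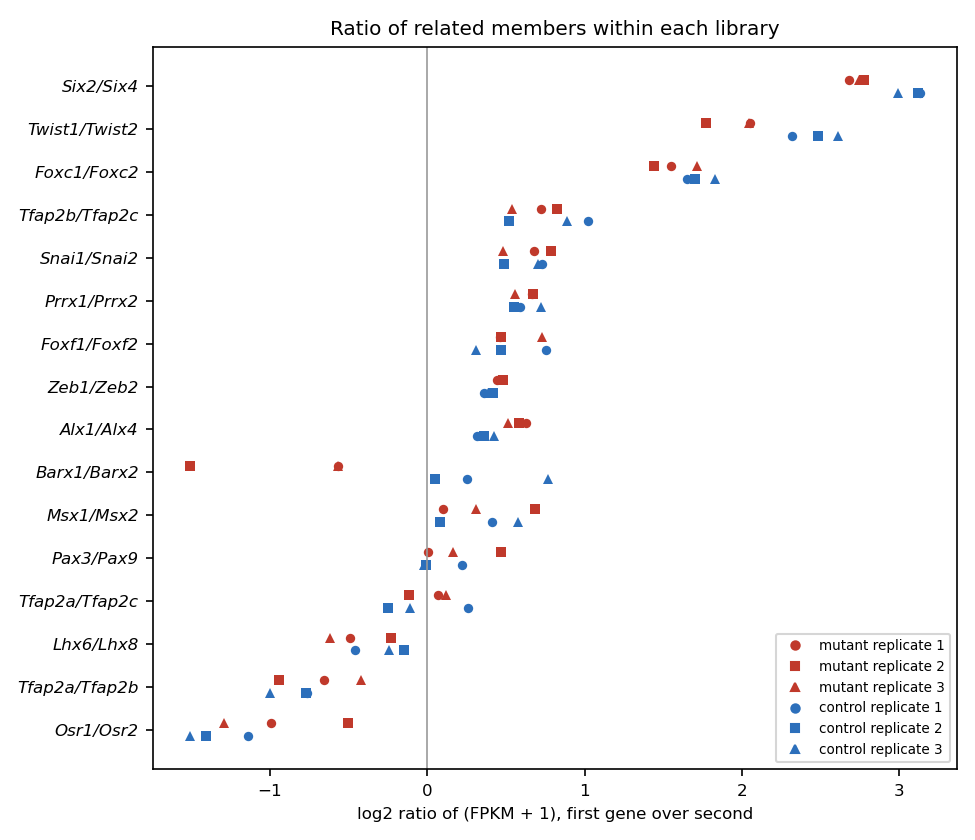
The log2 ratio of (FPKM + 1) of 2 related genes within each library, for 16 pairs, mutant (red) above control (blue). The Barx1/Barx2 ratio lies below 0 in mutant and above 0 in control libraries, and the Twist1/Twist2, Six2/Six4, Alx1/Alx4 and Zeb1/Zeb2 ratios also do not overlap between genotypes.

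Across libraries, mutant replicate 2 was most often at an extreme. It held the highest value of 15 of the 34 genes, against 21.4% of all genes tested, and the lowest of 6. Mutant replicate 3 held the lowest value of 10, against 19.4% of all genes tested. Genes at their highest in mutant replicate 2 included Osr1, Tbx15, Meox2, Twist2 and Lhx6. That library was also the highest in skeletal muscle markers and, at 69.1 FPKM, in the summed 5 Schwann cell markers, which were 47.6 and 44.3 FPKM in the other mutant libraries and 41.1 to 46.8 FPKM in control libraries. The part of these tissues in the member values was not tested beyond the muscle covariate fit.

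Other tissue markers moved with genotype to differing degrees. The 10 markers of dividing cells summed to 264 to 277 FPKM in mutant libraries and 322 to 330 FPKM in control libraries, all 10 with negative log2 changes, and 1 of them, Top2a, was called lower in mutant libraries. Of the 10 cartilage markers 6 were called lower in mutant libraries, with a median log2 change of -1.18. The 8 osteoblast markers summed to 1629 to 2170 FPKM in mutant and 1771 to 2972 FPKM in control libraries, with 0 called. The 6 endothelial markers summed to 139 to 162 FPKM in mutant and 128 to 144 FPKM in control libraries, and the 6 leukocyte markers to 165 to 190 FPKM and 148 to 156 FPKM. Log2 changes were positive in all of the endothelial and leukocyte markers, with 0 called. The 6 neuron markers summed to 380 to 462 FPKM in mutant and 396 to 501 FPKM in control libraries, with 0 called. The part of these cells in the differences of the 38 genes was not tested, other than by the covariate fits named beside the genes.

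**Figure D5:**
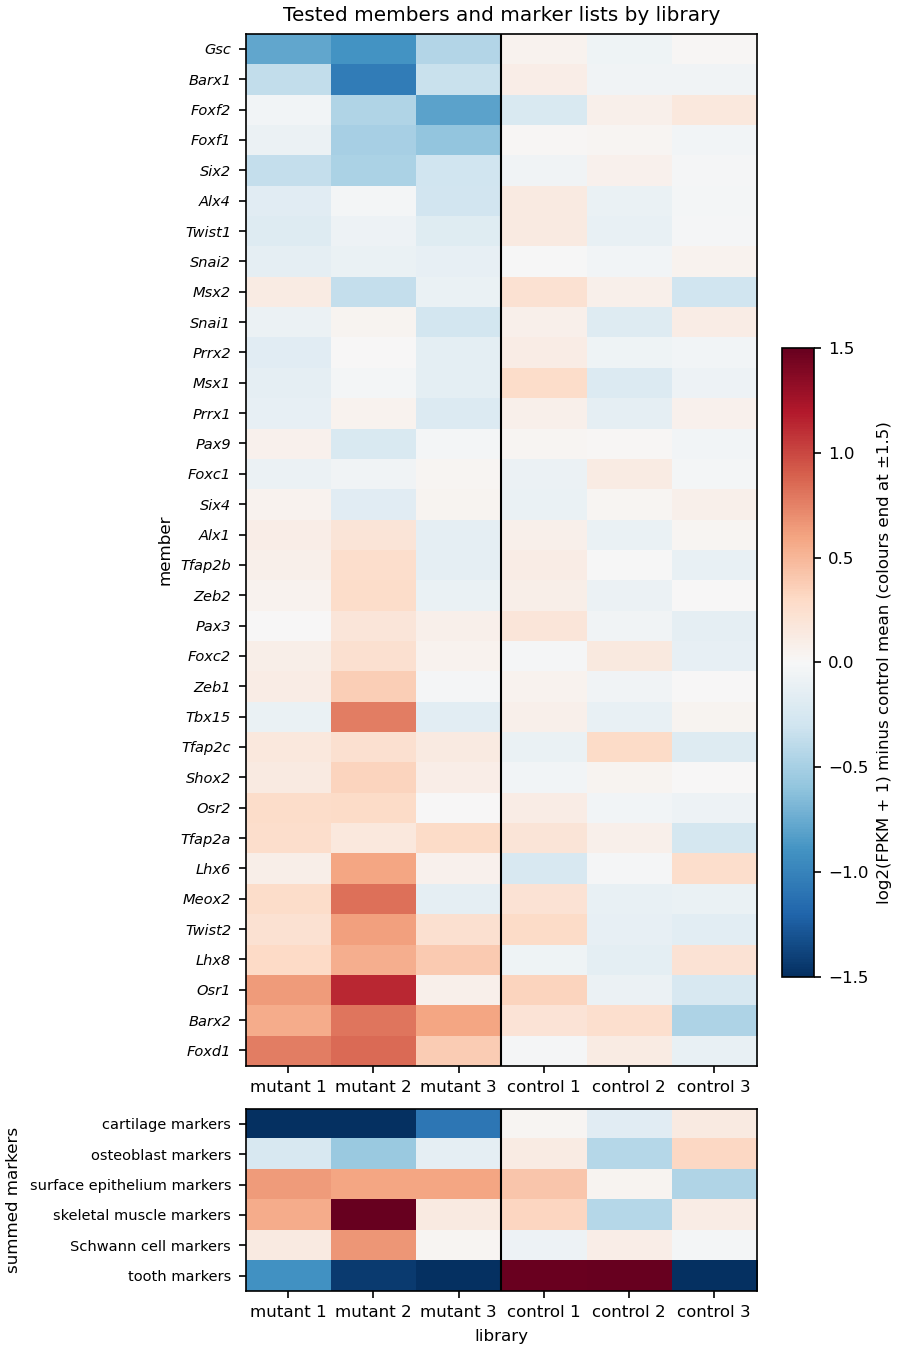
Each row is a tested gene (top) or a summed marker list (bottom) and each column a library, coloured by log2(FPKM + 1) minus the control mean, with colours ending at ±1.5. Gsc, Barx1 and Six2 are blue in all 3 mutant libraries, Foxd1 and Barx2 are red, and mutant replicate 2 holds the strongest colours among the genes and in the muscle row.

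A wider list held 42 other facial mesenchyme transcription factors, all found in the libraries and 40 of them tested. Of these, 0 were called higher and 1 lower in mutant libraries, against 0.0610% and 0.203% of all genes tested. That gene was Id1, a BMP target, with 61.7, 56.5 and 54.1 FPKM in mutant libraries and 78.5, 78.2 and 75.9 FPKM in control libraries (limma adjusted p = 0.0452). Log2 changes were positive in 12 and negative in 28, with a median of -0.058 against -0.0020 over all genes tested. An unadjusted limma p under 0.05 was found for 7 of the 40, against 11.3% of all genes tested. Of the 17 ligands that act on these factors 14 were tested and 0 were called, with a median log2 change of 0.10. The ligand of smallest p was Bmp5, with 7.98, 9.30 and 7.94 FPKM in mutant libraries and 10.8, 9.21 and 10.8 FPKM in control libraries (limma adjusted p = 0.347), and 1 mutant value overlapped. All 7 early migratory crest genes were tested and 0 were called. Among them Sox8 had the smallest p, with 3.72, 4.15 and 3.49 FPKM in mutant libraries and 4.43, 4.22 and 4.88 FPKM in control libraries (limma adjusted p = 0.447), and its groups did not overlap.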

How the data were processed

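The authors deposited FPKM values, 1 per gene symbol and library, per the file headers. Per the labels' protocols, RNA was extracted with TRIzol, and the library kit was stranded. The submitters' processing notes name build mm10 and, as software, Cuffdiff 2.2.1, TopHat2 2.1.1, SAMtools 0.1.18 and Bowtie2 2.2.8. Neither annotation nor strand setting is stated there.

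From these values, log2(FPKM + 1) was fitted for 14766 genes with limma 3.58.1 in R 4.3.3 (eBayes with trend, two-sided, 4 residual degrees of freedom, Benjamini-Hochberg adjustment over all genes, threshold 0.05). A count test was not run, since FPKM are no counts. Depth was estimated from whole-number steps among values under 0.15 FPKM and from 77 genes with 1 annotated transcript, which put control replicate 1 at 11.8 M fragments (quartiles 7.47 and 12.7), so fragment numbers are estimates. No 2 libraries were identical.

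The genes, lists and roles were chosen with earlier results of these data known. Genes given per library by rule had an unadjusted p under 0.05, groups that do not overlap, or the highest mean or smallest p of their role group. Values per library of Twist1, Osr1, Foxf2, Foxc1, Foxc2, Meox2, Tbx15, Tbx22, Lhx6, Hand1 and Hand2, and of Amelx and Ambn, were added after they were seen. Alternatives were other pseudocounts, filters, scalings, eBayes settings, library weights, covariates, a threshold of 0.1 and leaving out each library. Plots were drawn with matplotlib 3.10.9 in Python 3.11.15.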

Additional observations from a re-analysis of the deposited data

How the results depend on the processing

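The count of genes called, 0 of 34, became 2 with library weights and at an adjusted p under 0.1 (Gsc and Six2 in both). Over the fits that leave out 1 library it ran from 0 to 1, the call being Gsc without mutant replicate 3. The count at an unadjusted p under 0.05, 9, became 3 with sex as a covariate and 1 with the cartilage markers as a covariate, beside 5.14% and 6.74% of all genes tested. The 1 gene under the cartilage covariate was none of the first 9. When 1 library was left out, the count ran from 7 to 11. With the muscle markers it was 9, with 1 higher and 8 lower, and only Gsc, Six2 and Foxd1 were shared with the first 9. Over 20 alternatives, 8 of the 15 named and tested genes changed sign under at least 1. With the cartilage markers as a covariate the log2 change was -0.080 for Twist2, -0.027 for Pax3, 0.31 for Barx1, 0.15 for Gsc, -0.35 for Osr2, -0.15 for Shox2 and -0.31 for Foxd1. That covariate nearly repeats the genotype. With the epithelium markers it was -0.10 for Tfap2a and -0.095 for Pax3, and with the muscle markers -0.033 for Pax3; the cause was not tested. The other 7 had the same sign in every alternative that tested them, though not the same size: with the cartilage markers Barx2 was 0.038 and Six2 -0.16, and with sex Foxf1 was -0.093. The pair ratios were recomputed with a pseudocount of 0.1 and with each library left out, and under no other alternative. Of the 16, 11 had the same direction in all of these. When 1 library was left out, the differences of the other 5 ran from -0.15 to 0.14 for Msx1/Msx2, from -0.024 to 0.063 for Prrx1/Prrx2, from -0.053 to 0.20 for Tfap2a/Tfap2c, from -0.058 to 0.16 for Foxf1/Foxf2 and from -0.067 to 0.092 for Snai1/Snai2. No paired analysis was possible because the labels number no replicates: the numbers used here follow accession order and pair no libraries.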
